A study of Mus musculus with 18 samples.

Results

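Mitochondrial ribosomal protein genes were taken as the protein-coding rows whose symbol is Mrpl or Mrps followed by a number in all 7 of the authors' deposited tables. The rule found 77 genes of 22703 protein-coding genes and of 37980 rows in all, 47 named Mrpl and 30 named Mrps. The tables compare RNA-seq levels in the nucleus accumbens, a reward region of the ventral forebrain rich in medium spiny neurons, of mice on a C57BL/6 background. There were 18 samples in 6 groups of 3, described by the submitters as biological replicates: labelled knockout and labelled wild type for Rgs9-2 (a brain splice form of the Rgs9 gene, a regulator of G protein signalling), each after spared nerve injury with desipramine, after spared nerve injury with saline, and naive. Spared nerve injury is a nerve lesion that produces lasting neuropathic pain, and desipramine is a tricyclic antidepressant, given here at 15 mg/kg into the peritoneum 2 times a day. The design asks how RGS9-2 bears on gene regulation in this region under nerve injury and under the antidepressant. The knockout is not stated to be limited to any cell type, and no source used here gives the deleted exons.

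The mitochondrial ribosome translates the small set of proteins that the mitochondrial genome encodes, all of them subunits of the respiratory chain or of ATP synthase. Its RNAs come from mitochondrial DNA, but every one of its proteins is encoded in the nucleus, made in the cytosol and imported. Some of these proteins descend from bacterial ribosomal proteins and others were added during the evolution of mitochondria. Neurons depend on oxidative phosphorylation for synaptic transmission, and loss of single members causes mitochondrial disease in humans.

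By subunit, 49 members belonged to the large subunit, including Mrps30 and Mrps18a, which sit there in spite of their names, and 26 to the small subunit. Mrps36, now known as a component of the alpha-ketoglutarate dehydrogenase complex, was kept by the rule but classed with neither. Mrps36-ps1, which carries the name of a pseudogene but is labelled protein-coding in the tables, was the only member not tested, listed at 0 to 0.0367 FPKM. The remaining 76 members had the status OK in all 7 tables. They lay on 17 chromosomes in the NCBIM37 coordinates of the tables, with the largest number on any chromosome, 10, on chromosome 11.

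The promoters of 67 member genes were found among the RefSeq promoters (GRCm38.p6, 250 bases before to 50 after the start), 73 promoters in all, and were searched on both strands for motifs of factors known to drive nuclear genes for mitochondria. The NRF1 motif (GCGCA, any base, then GCGC) was in 16.4% of them, against 9.09% of 12362 promoters of other protein-coding genes of at least 1 FPKM and 4.603% of all 32851 promoters. The ETS motif CCGGAAG, the core bound by GABP (nuclear respiratory factor 2), was in 32.9%, against 15.3% and 8.86%. The YY1 motif AANATGGCG was in 13.7%, against 4.35% and 2.38%. At least 1 of the 3 motifs was in 54.8% of member promoters, against 25.5% of the promoters of the other genes and 14.2% of all. The TATA motif TATAAA was in 6.85%, against 7.07% and 13.6%, and the CCAAT box in 41.1%, against 37.5% and 37.4%. A match of letters is a description and not a bound site, and no test was made of these shares.

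Shown here are windows from 150 bases before to 30 after the start of 5 members named in the results, chosen to show each of the 3 motifs, with every NRF1, ETS or YY1 match in capitals and all else in lower case. Mrps12 (chr7:28741792-28741971, minus strand) holds 1 ETS match at the start and was the member nearest to the threshold in the comparisons below. Mrpl52 (chr14:54426759-54426938, plus strand) holds 2 ETS matches on its opposite strand, and Mrpl34 (chr8:71464776-71464955, plus strand) 1 upstream. Mrps11 (chr7:78782981-78783160, plus strand) holds a YY1 match on its opposite strand. Mrpl39 (chr16:84735215-84735394, minus strand), the member that lay highest where most lay low, holds an NRF1 match.
Mrps12: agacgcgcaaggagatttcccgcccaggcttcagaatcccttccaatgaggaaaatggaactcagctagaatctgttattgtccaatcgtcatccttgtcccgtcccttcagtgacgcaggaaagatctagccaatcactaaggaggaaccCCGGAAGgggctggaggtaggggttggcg
Mrpl52: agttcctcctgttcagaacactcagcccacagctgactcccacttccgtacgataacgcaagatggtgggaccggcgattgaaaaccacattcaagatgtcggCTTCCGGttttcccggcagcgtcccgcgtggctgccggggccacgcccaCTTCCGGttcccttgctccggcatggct
Mrpl34: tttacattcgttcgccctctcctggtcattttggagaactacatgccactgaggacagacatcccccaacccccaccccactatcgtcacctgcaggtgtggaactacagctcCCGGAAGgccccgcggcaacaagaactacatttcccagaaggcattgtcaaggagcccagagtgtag
Mrps11: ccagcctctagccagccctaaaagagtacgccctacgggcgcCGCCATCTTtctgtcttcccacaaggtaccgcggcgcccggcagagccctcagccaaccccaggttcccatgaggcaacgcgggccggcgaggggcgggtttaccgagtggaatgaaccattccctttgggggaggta
Mrpl39: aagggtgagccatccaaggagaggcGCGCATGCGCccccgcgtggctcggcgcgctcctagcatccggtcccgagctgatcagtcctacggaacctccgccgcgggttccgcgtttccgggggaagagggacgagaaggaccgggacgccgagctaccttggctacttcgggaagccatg

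In the GENCODE M21 annotation (GRCm38), 16 of 75 members (21.3%) were counted with another protein-coding gene starting head to head within 500 bp. The share was 8.63% of 13094 other protein-coding genes of at least 1 FPKM. The count of members does not hold the pair Mrps11 and Mrpl46, whose RefSeq promoter windows overlap on opposite strands. The partner of Mrps12, at 172 bp, was Sars2, the mitochondrial seryl-tRNA synthetase. The partner of Mrpl49, at 59 bp, was Fau, which encodes a cytosolic ribosomal protein, and that of Mrpl32, at 75 bp, was Psma2, a proteasome subunit. The listed loci of 32 members overlapped another row of the tables, and the sources used here do not say whether reads were assigned by strand. The locus of Mrpl2 overlapped the most rows, 19. The standard error recovered from its test statistic reached 7.73 on the log2 scale, and the part of the overlap in that error was not tested.

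In the NCBIM37 coordinates of the tables, Mrps12 lies on chromosome 7 from 29524659 to 29526839, Mrpl52 on chromosome 14 from 55045745 to 55048587, Mrpl34 on chromosome 8 from 73988824 to 73989651 and Mrps21 on chromosome 3 from 95666556 to 95675442. The Mrpl2 row runs on chromosome 17 from 46579396 to 46968362, which is the locus that overlaps 19 rows.

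Before any comparison, 2 facts of the series touch all that follows. Rgs9 was higher, not lower, in the libraries labelled knockout: in the authors' deposited tables it had 217 FPKM in naive mice labelled knockout against 120.3 FPKM in naive mice labelled wild type (q = 0.0443), 177 against 104 FPKM after injury with saline (q = 0.0170), and 168 against 114 FPKM after injury with desipramine (q = 0.00818), by Cuffdiff's test. Every direction below is therefore between libraries labelled knockout and libraries labelled wild type. Naive mice labelled wild type were unlike the other 5 groups: the summed FPKM of all genes was 521317 to 543240 for the other groups in all tables, against 648632 and 660678 in the 2 tables of the naive group labelled wild type. Cortical excitatory neuron markers summed to 75.6 FPKM in naive mice labelled knockout against 321 FPKM in naive mice labelled wild type, and choroid plexus markers to 660 against 1415 FPKM. Over the other 5 groups cortical markers summed to 67.3 to 137 FPKM. Choroid plexus markers summed to 24.98 to 668 FPKM over those 5 groups, which were thus not alike in these markers. Medium spiny neuron markers, a list that includes Rgs9, were present in all groups, summing to 2504 to 4016 FPKM. By the lane numbers in the sample titles no lane held more than 1 group, so a lane effect and a group effect cannot be told apart. The tables hold 1 value per gene and group, so errors after ± are standard errors, log2 fold change over the authors' test statistic, and the spread between animals cannot be shown. The deposited p and q do not rank genes as the test statistic does, so a ± value is not the error behind a quoted q.

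The members were well expressed in the nucleus accumbens. With levels set across the deposited tables by 1 factor per table (0.980 to 1.01), the mean of the 6 groups ran from 5.80 FPKM for Mrpl1 to 120.1 FPKM for Mrps21, with a median of 36.3 FPKM over the 76 members. Of these, 74 reached 10 FPKM and 20 reached 50 FPKM. FPKM is a level per transcript length, so these levels can be compared between genes, within the limits of length and overlap given below. The large subunit had a median of 37.7 FPKM and the small subunit 37.8 FPKM. Proteins with a bacterial counterpart had 37.8 FPKM (46 members) and those without 34.9 FPKM (29 members).

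Mrps21, the small-subunit protein bS21m, was the most abundant member. On the same scale set across the deposited tables, it had 117.6 FPKM in labelled knockout and 105.0 in labelled wild type after injury with desipramine, 111.6 and 104.9 after injury with saline, and 114.5 and 167 when naive. Mrpl52, a large-subunit protein with no bacterial counterpart, had 100.4 and 103 FPKM, 91.3 and 99.3 FPKM, and 107 and 189.9 FPKM in the same order of groups. For both genes the naive group labelled wild type was the high one and the other 5 lay close together. Next came the large-subunit genes Mrpl48, Mrpl2 and Mrpl17, with means of 94.0, 92.2 and 86.0 FPKM. Mrps21 and Mrpl52 had the shortest matched transcripts of all members, 405 and 418 nt, and the listed loci of Mrpl48, Mrpl2 and Mrpl17 overlapped other rows. The part of length or overlap in this order was not tested.

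At the low end stood Mrpl1, the protein of the L1 stalk, Mrpl35, Mrpl39, and the mitochondrion-specific small-subunit genes Mrps27 and Mrps31, with means of 5.80, 7.97, 12.04, 12.6 and 12.7 FPKM. Mrpl1 had 5.88 and 5.47 FPKM in labelled knockout and labelled wild type after injury with desipramine, 5.86 and 6.04 FPKM after injury with saline, and 5.51 and 6.03 FPKM when naive, by levels set across the deposited tables. Mrpl35 had 7.86 and 7.84, 8.44 and 7.90, and 7.96 and 7.84 FPKM in the same groups. For Mrpl1 and Mrps31 the naive group labelled wild type lay within the range of the other 5, and for Mrpl35 and Mrpl39 it was the lowest. Mrps27 had 11.6 to 12.3 FPKM in the other 5 groups and 16.1 FPKM in naive mice labelled wild type.

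**Figure D1:**
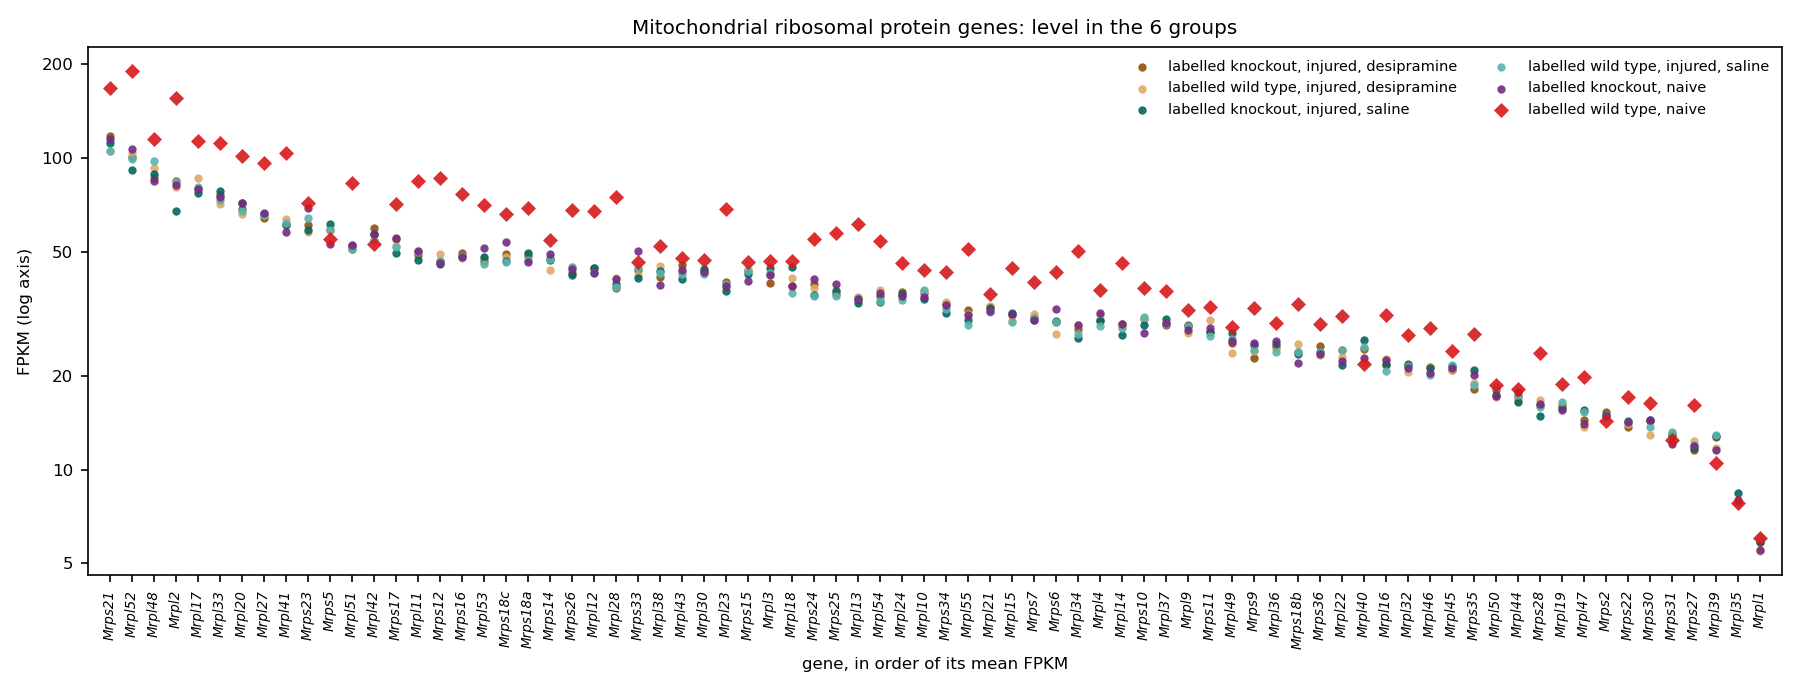
FPKM (log axis) of the 76 expressed members in the 6 groups, set across the authors' deposited tables, with genes in order of their mean. The red diamonds, the naive group labelled wild type, lie above the other 5 points for 67 of the 76 genes, and the other 5 points lie close together.

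Leaving out the naive group labelled wild type, the 76 members had close to the same level in the other 5 groups. The median ratio of the highest to the lowest of these 5 was 1.09, between 1.03 and 1.251, against a median of 1.16 for other protein-coding genes. Those other genes had a lower median level, 12.2 to 12.3 FPKM in these groups, and were not matched to the members in level. Among members the widest ratio was that of Mrpl2, which had 67.3 FPKM in the injured saline group labelled knockout and 80.9 to 84.2 FPKM in the other 4. The summed FPKM of all members was 2887 in labelled knockout and 2877 in labelled wild type after injury with desipramine, 2844 and 2857 after injury with saline, 2899 in naive mice labelled knockout and 4001 in naive mice labelled wild type. In this last group 67 members (88.2%) had their highest level and 5 their lowest, where 38.5% of 13412 other protein-coding genes had their highest. The median over members was 33.6 to 35.2 FPKM in the other 5 groups and 46.1 FPKM in naive mice labelled wild type, while the median over other protein-coding genes was 12.2 to 12.3 FPKM and 12.5 FPKM in the same groups. In bulk tissue, fewer cells of a type and less RNA per cell cannot be told apart.

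Most mitochondrial ribosomal protein genes had a lower level in naive mice labelled knockout than in naive mice labelled wild type, but no single member passed the test. The median log2 fold change of the 76 members was -0.40, against -0.02 for other protein-coding genes of at least 1 FPKM, and 70 members were below 0. By the authors' deposited q-values, 0 members were called at q at or below 0.05, where 1.44% of all genes tested were called. At an unadjusted p below 0.05, 14 members were lower, where 6.34% of all genes tested were lower, and 0 were higher. The 14 were Mrps12, Mrps16, Mrpl11, Mrpl12, Mrpl13, Mrpl23, Mrpl28, Mrpl34, Mrpl41, Mrpl51, Mrpl52, Mrpl54, Mrpl55 and Mrps18a.

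Mrps12, the counterpart of the bacterial protein S12 at the decoding centre, came nearest to the threshold. In the authors' deposited table it had 44.9 FPKM in naive mice labelled knockout against 84.2 FPKM in naive mice labelled wild type, a log2 fold change of -0.91 ± 0.42 (q = 0.0591, Cuffdiff's test). Mrpl41, a large-subunit protein without bacterial counterpart, had 56.6 against 101.6 FPKM, a log2 fold change of -0.84 ± 0.32 (q = 0.0757). Both genes had close to the same level in naive mice labelled knockout as in the injured groups of either label.

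Mrpl52 had 104.9 against 186 FPKM (-0.82 ± 0.22, q = 0.146), with the smallest recovered standard error among the members named here. Its test statistic was the largest in size among members, 3.68, although its deposited q was above that of Mrps12. Mrpl28 had 39.9 against 73.0 FPKM (-0.87 ± 0.56, q = 0.188), and Mrpl34 28.4 against 49.2 FPKM (-0.79 ± 0.31, q = 0.165), both in the authors' deposited table for the naive groups. Mrpl2, whose bacterial counterpart L2 lies near the peptidyl transferase centre, had the lowest log2 fold change, at 80.3 against 152 FPKM (-0.92), but its recovered standard error of 7.73 leaves that value without precision. At the other end stood Mrpl39 with 11.3 against 10.3 FPKM (0.14 ± 0.54), Mrps33 with 49.2 against 45.5 FPKM (0.11 ± 0.64) and Mrpl42 with 56.0 against 52.0 FPKM (0.11 ± 0.30), none of them past the test.

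By subunit, the median log2 fold change in this comparison was -0.44 for the large subunit and -0.38 for the small subunit. At an unadjusted p below 0.05, 12 of 49 members of the large subunit and 2 of 26 of the small subunit were lower. Of all genes tested, 6.34% were lower at that p. The median log2 fold change was -0.41 for members with a bacterial counterpart and -0.34 for those without. The median recovered standard error was 0.46 for the large and 0.59 for the small subunit, so the counts by subunit were made at unlike precision. The difference between the subunits, or between members with and without a bacterial counterpart, was not tested. Head-to-head partners did not always share the member's value: Sars2 had 4.57 against 6.43 FPKM (-0.49 ± 0.45) beside Mrps12 at -0.91, while Fau had 411 against 653 FPKM (-0.67 ± 0.28) beside Mrpl49 at -0.15. Of the 3 Mrps18 paralogs, Mrps18a, in the large subunit, was at -0.57 ± 0.38 in the authors' deposited table. Mrps18b and Mrps18c, in the small subunit, were at -0.62 ± 1.27 and -0.29 ± 0.64. Only Mrps18c of the 3 was counted above as having a bacterial counterpart.

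After nerve injury with saline, the same contrast of labels left the members spread evenly about 0, with 40 of 76 above it. The median log2 fold change of labelled knockout over labelled wild type was 0.00 for members and 0.00 for other protein-coding genes, and the spread among members (SD over 76 genes) was 0.08, against 0.26 in the naive comparison. No member was called in the authors' deposited table (0 of 76, where 0.329% of all genes tested were called), and 0 had an unadjusted p below 0.05, where 2.90% of all did. Mrps12 had 45.6 FPKM in injured mice labelled knockout and 46.8 FPKM in injured mice labelled wild type, on the scale set across the deposited tables. The lowest log2 fold changes were those of Mrpl2 (-0.31), Mrpl22 (-0.17) and Mrpl48 (-0.14), and the highest those of Mrpl18 (0.27), Mrps35 (0.15) and Mrpl33 (0.09).

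After injury with desipramine, labelled knockout over labelled wild type again gave a median log2 fold change of 0.00, against 0.00 for other protein-coding genes. By the authors' deposited q-values, 0 of 76 members were called, where 0.859% of all genes tested were, and 0 had an unadjusted p below 0.05, where 5.58% did. Mrps21 had 119 FPKM in labelled knockout against 106 FPKM in labelled wild type (0.16 ± 0.33), the highest log2 fold change among members, followed by Mrps30 (0.16) and Mrps6 (0.14). Mrps11 had 28.0 against 30.6 FPKM (-0.13 ± 0.32), the lowest, next to Mrpl17 (-0.12) and Mrpl38 (-0.12). No member's test statistic exceeded 0.816 in size, so every member lay within 1 recovered standard error of 0.

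**Figure D2:**
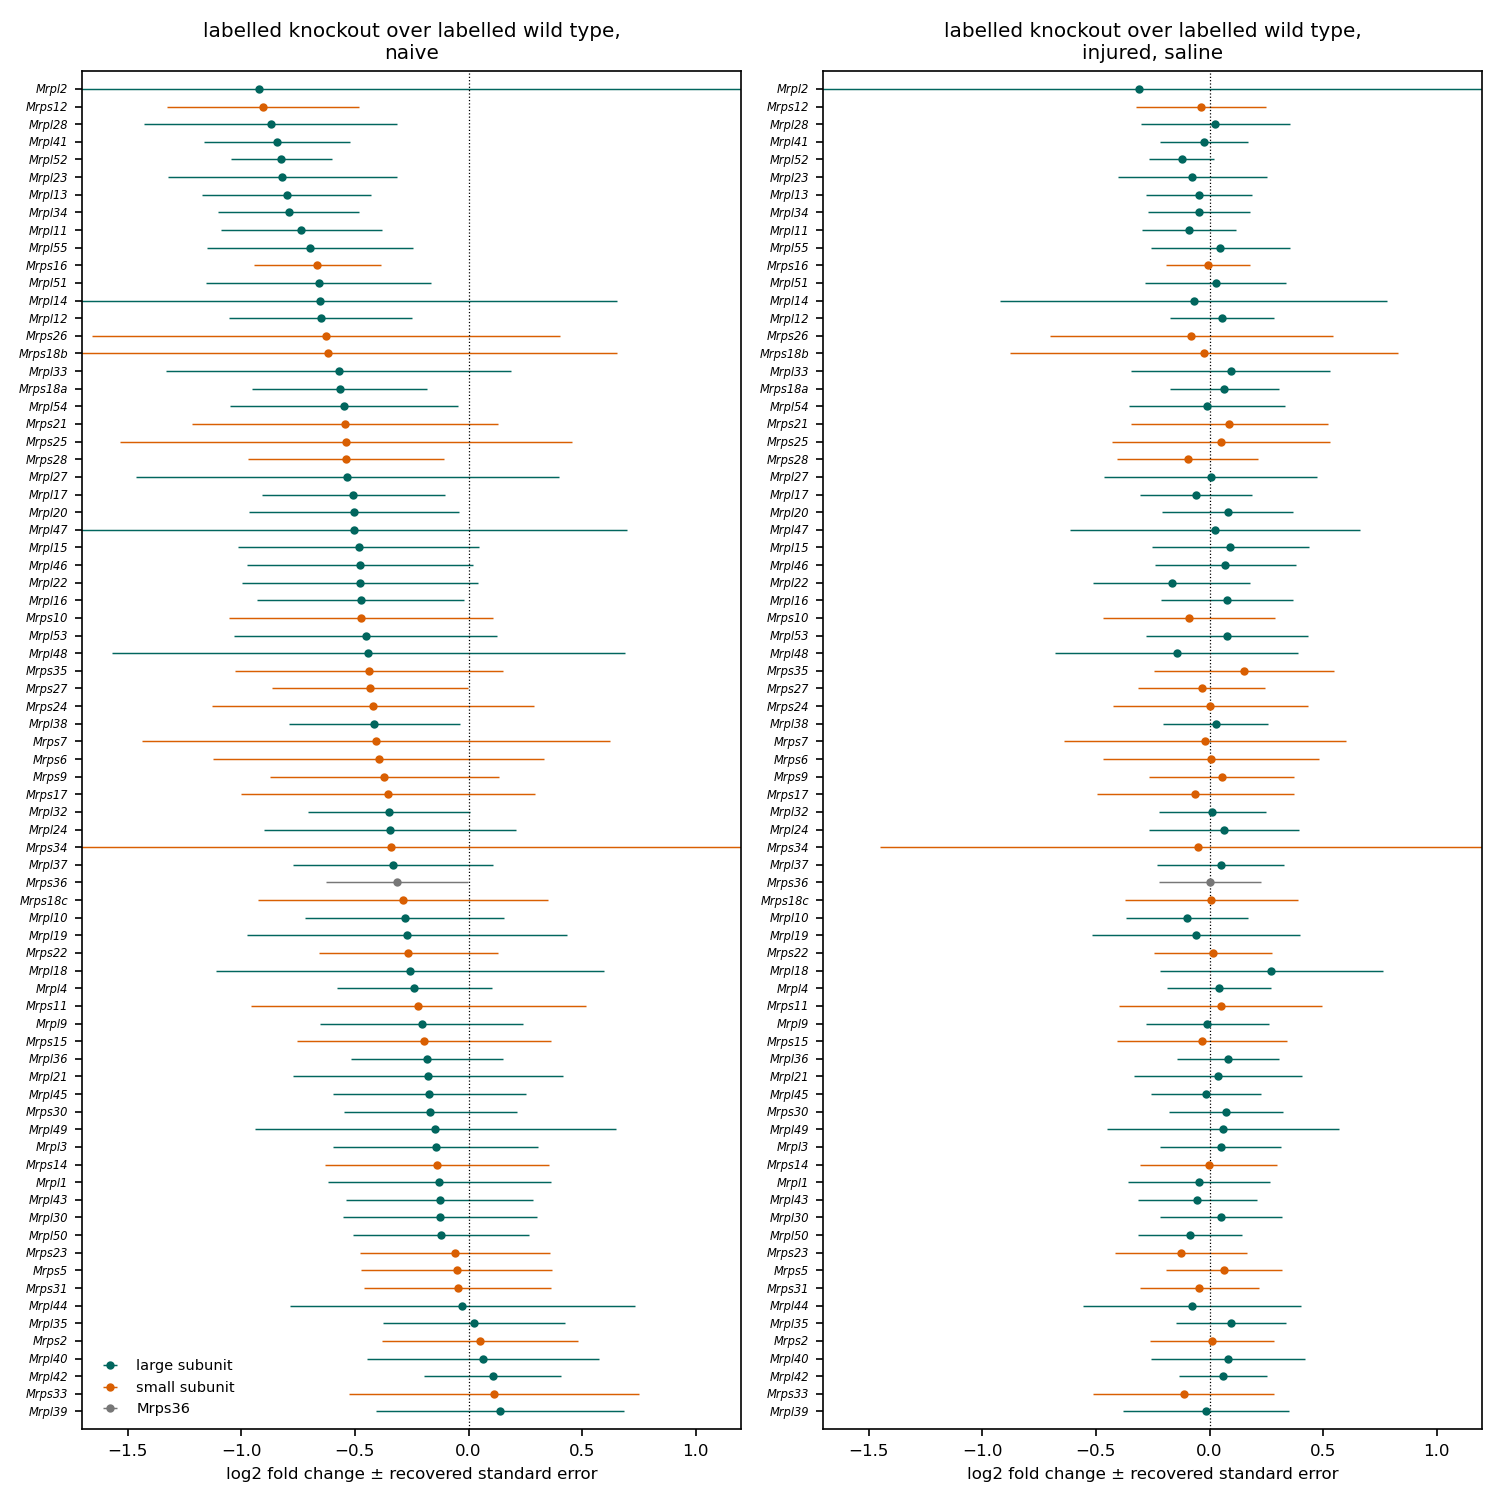
Log2 fold change of each member, labelled knockout over labelled wild type, in naive mice (left) and in mice injured and given saline (right), with bars of 1 recovered standard error and colours for the subunit. Genes run in the order of the left panel, where 70 of 76 points lie below 0, while the right panel has a median of 0.00. Bars that reach the edge, as for Mrpl2 with 7.73 in the left panel, are longer than the axis.

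Injury with saline over naive, in mice labelled wild type, used the same naive group labelled wild type as its denominator, so its values are not independent of the naive comparison of labels. The median log2 fold change of members was -0.39, against -0.04 for other protein-coding genes, with 69 of 76 members below 0. By the authors' deposited q-values, 0 members were called, where 1.42% of all genes tested were called. At an unadjusted p below 0.05, 16 members were lower, where 6.30% of all genes tested were lower, and 0 were higher. With a normal p taken from the test statistic in place of the deposited p, 1 member, Mrpl52, was called. The injured mice also received repeated saline injections, which the naive mice are not stated to have had, so injury and injection cannot be told apart.

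Mrpl52 had 98.8 FPKM in injured mice labelled wild type against 189 FPKM in naive mice labelled wild type, a log2 fold change of -0.94 ± 0.23 (q = 0.0964, Cuffdiff's test). Mrps12 had 46.5 against 85.9 FPKM (-0.88 ± 0.44, q = 0.0643) and Mrpl34, the counterpart of the small bacterial protein L34, 27.1 against 50.2 FPKM (-0.89 ± 0.33, q = 0.0905) in the authors' deposited table. All 3 were near their level in naive mice labelled knockout. The lowest log2 fold changes were those of Mrpl28 (-0.95), Mrpl52 and Mrpl2 (-0.90 ± 7.37), and the highest those of Mrpl39 (0.30 ± 0.56), Mrpl40 (0.18) and Mrps5 (0.09). By subunit the medians were -0.38 for the large and -0.44 for the small, and -0.46 and -0.30 for members with and without a bacterial counterpart.

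In mice labelled knockout, whose tables do not hold the naive group labelled wild type, injury with saline over naive gave a median log2 fold change of 0.00 for members and 0.00 for other protein-coding genes. No member was called in the authors' deposited table (0 of 76, where 0.459% of all genes tested were), and 0 had an unadjusted p below 0.05, where 4.41% did. Mrps33, a small-subunit protein without bacterial counterpart, had 40.7 FPKM in injured against 49.6 FPKM in naive mice (-0.28 ± 0.35), the lowest log2 fold change, next to Mrpl2 (-0.28) and Mrps23 (-0.23). Mrps5 had 60.8 against 52.4 FPKM (0.21 ± 0.24), the highest, next to Mrpl18 (0.20) and Mrpl40 (0.20).

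The difference between both injury responses was tested directly, as the log2 fold change in labelled knockout minus that in labelled wild type, for genes of at least 1 FPKM in all 4 groups. Its median was 0.40 over 76 members and 0.04 over other protein-coding genes, and it was above 0 for 70 members. After Benjamini-Hochberg adjustment over 13633 genes 0 members passed, where 0.132% of all genes did, and every member's adjusted p was 1. At an unadjusted p below 0.05 there were 3 members, where 1.62% of all genes were. Mrpl52 had a log2 fold change of -0.23 ± 0.13 in labelled knockout against -0.94 ± 0.23 in labelled wild type, a difference of 0.71 with a 95% interval of 0.19 to 1.24 (unadjusted p = 0.00786). Mrpl41 differed by 0.83, with an interval of 0.09 to 1.57 (unadjusted p = 0.0289), and Mrps16, the counterpart of bacterial S16, by 0.67, with an interval of 0.01 to 1.33 (unadjusted p = 0.0467). This difference, too, contains the naive group labelled wild type.

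**Figure D3:**
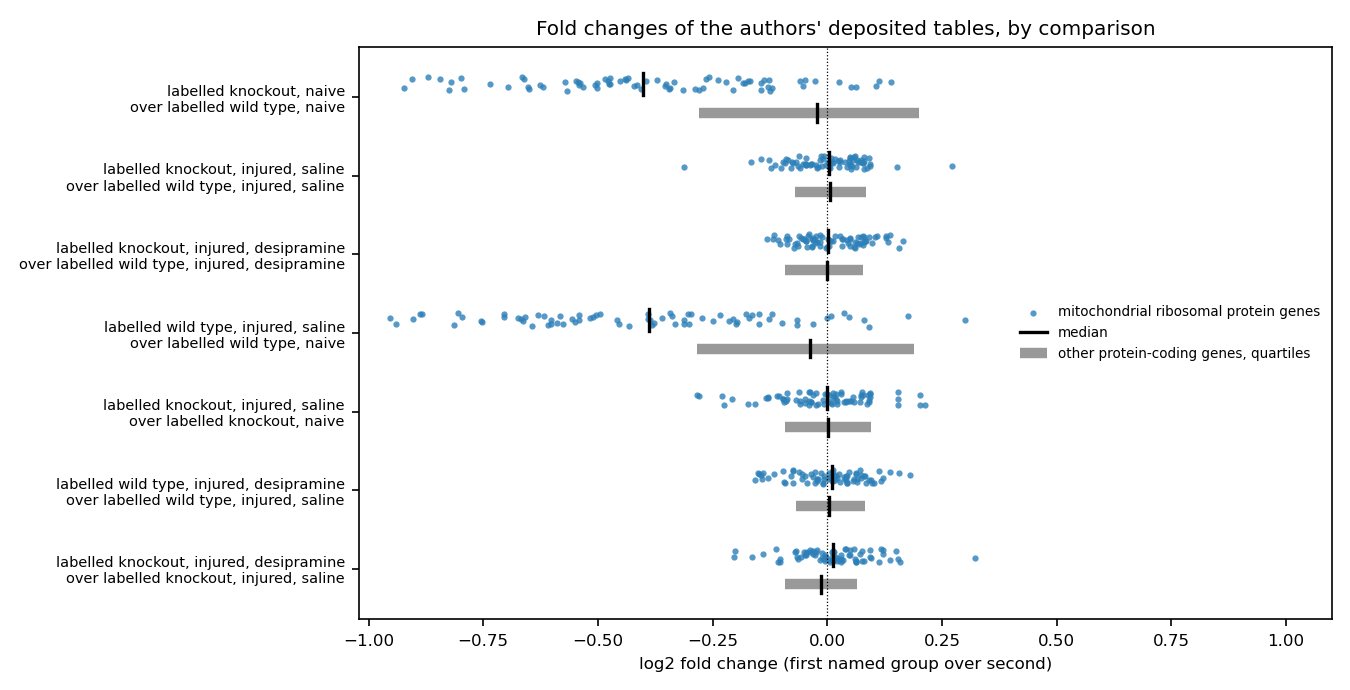
Log2 fold changes of the 76 members (points) with their median (black bars), above the quartiles and median of other protein-coding genes (grey), in the 7 deposited comparisons. The points are shifted below 0, with medians of -0.40 and -0.39, in the comparisons that hold the naive group labelled wild type, and are centred at 0.00 to 0.01 in the other 5.

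With desipramine, members' levels were close to those with saline in both labels. In injured mice labelled wild type, desipramine over saline gave a median log2 fold change of 0.01 for members and 0.00 for other protein-coding genes. No member was called in the authors' deposited table (0 of 76, where 0.202% of all genes tested were), and 0 had an unadjusted p below 0.05, where 1.79% did. Mrps11 was highest, with 30.7 FPKM after desipramine against 27.1 FPKM after saline (0.18 ± 0.38), then Mrpl18 (0.16) and Mrpl16 (0.14). The lowest were Mrpl47 (-0.16), Mrpl49 (-0.15) and Mrpl40 (-0.15).

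In injured mice labelled knockout, desipramine over saline gave a median log2 fold change of 0.01 for members and -0.01 for other protein-coding genes. No member was called in the authors' deposited table (0 of 76, where 1.05% of all genes tested were), and 0 had an unadjusted p below 0.05, where 4.37% did. Mrpl18, the counterpart of the bacterial protein L18, had 38.9 FPKM after desipramine against 44.8 FPKM after saline (-0.20 ± 0.45), the lowest, next to Mrps35 (-0.20) and Mrpl3 (-0.16). The highest were Mrpl2 (0.32 ± 4.87), Mrpl22 (0.16) and Mrpl43 (0.15). The difference between the desipramine responses, labelled knockout minus labelled wild type, had a median of 0.01 over members, and 0 of 76 passed after adjustment over 13827 genes, where 0.145% of all genes did. None of them had an unadjusted p below 0.05, where 0.861% of all genes did, and the lowest were those of Mrpl18 (0.555), Mrpl22 (0.592) and Mrps23 (0.603). For Mrpl18 the difference was -0.36, with a 95% interval of -1.56 to 0.84, so a change of more than 1 log2 unit lies inside the interval.

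Members differed among themselves in the comparisons against the naive group labelled wild type, and their order was related to transcript properties taken from GENCODE M21. Over the 75 members with a match, the median transcript length was 1047 nt, against 2229 nt for other protein-coding genes, and the median GC content was 51.1%, against 51.2%. Across members the log2 fold change of labelled knockout over labelled wild type in naive mice had a Spearman correlation of 0.32 with transcript length, -0.46 with GC content and -0.50 with FPKM. Across 12885 other protein-coding genes the same correlations were 0.35, -0.27 and -0.19. These are correlations across genes of 1 pair of groups, and genes are not independent replicates.

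Members with transcripts of up to 800 nt had a median log2 fold change of -0.54 (24 members), against -0.20 for 1420 other genes of that length. Those of 2000 to 4000 nt had -0.14 (13 members), against 0.03 for 4802 other genes. Members of over 55% GC had -0.61 (18 members), against -0.16 for other genes, and those of up to 45% GC had -0.13 (10 members), against 0.11. Mrps12, at 722 nt and 58.9% GC, and Mrpl52, at 418 nt and 56.7% GC, were short and GC-rich, whereas Mrpl39, at 2294 nt and 48.2% GC, was long. When each member was centred on other genes like it in length, GC content and FPKM, a step chosen after the data were seen, the median became -0.22 in the naive comparison of labels (60 of 75 below 0) and -0.21 for injury in mice labelled wild type (58 of 75 below 0). The part of length, GC content or the lane in the remainder was not tested.

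**Figure D4:**
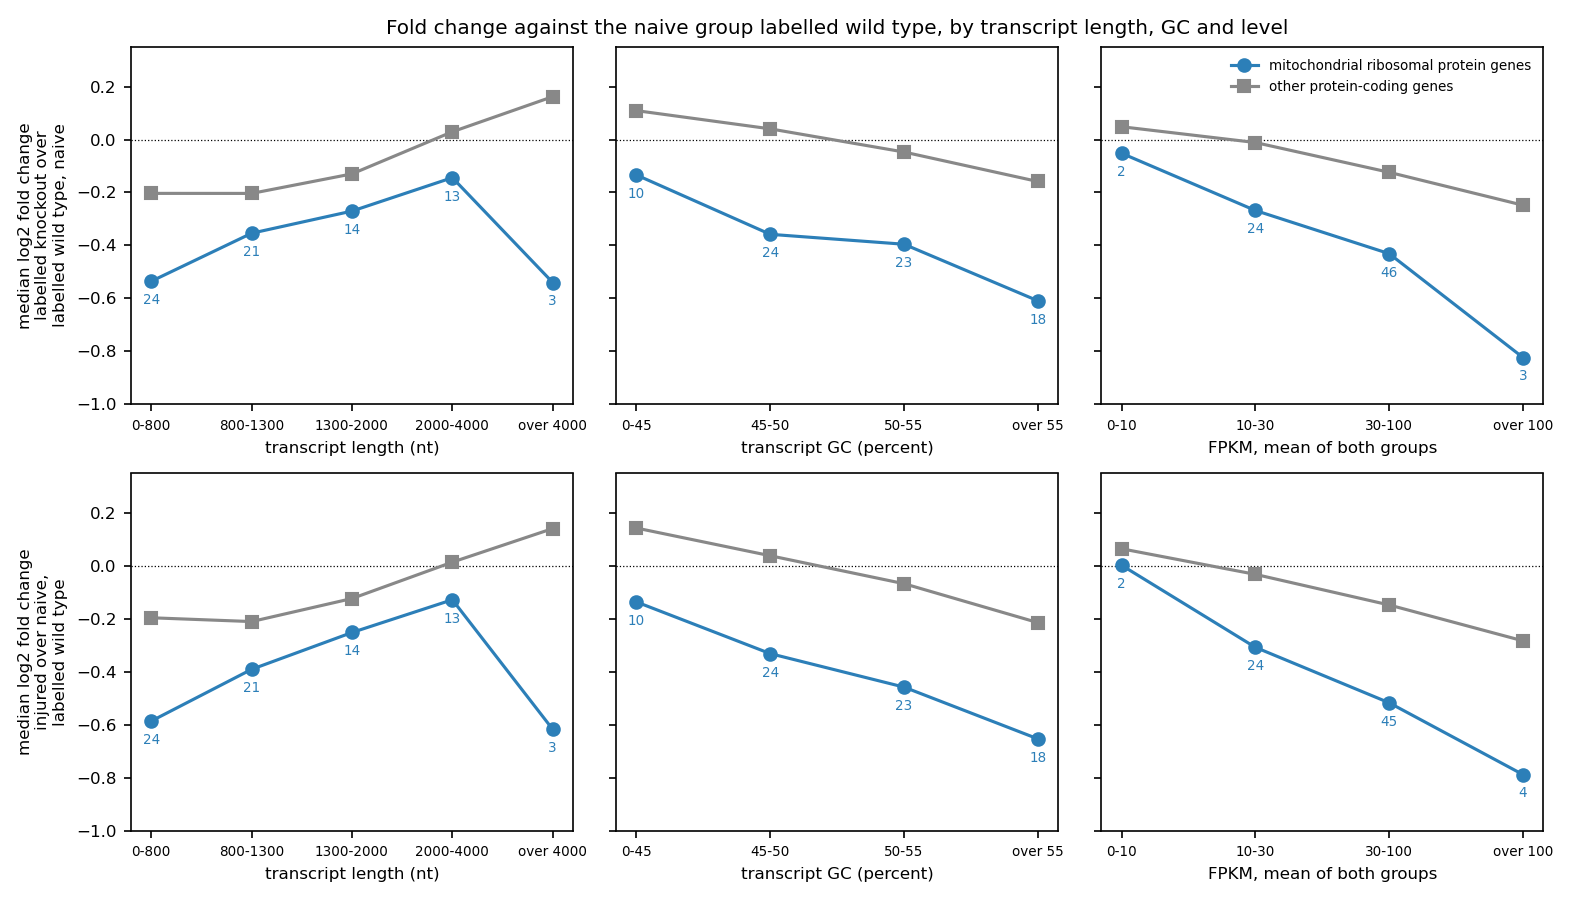
Median log2 fold change of members (blue, with their number) and of other protein-coding genes (grey) in bins of transcript length, GC content and FPKM, for labelled knockout over labelled wild type in naive mice (top) and for injury over naive in labelled wild type (bottom). Both sets fall with rising GC content and FPKM, and members lie below the other genes in every bin, but some bins hold only 2 to 4 members.

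A relation with GC content was also present where the members' median was near 0. For desipramine over saline in injured mice labelled wild type, the log2 fold change of the 75 members had a Spearman correlation of 0.54 with GC content, and that of 12870 other protein-coding genes 0.49, with all member values between -0.16 and 0.18. For desipramine over saline in mice labelled knockout the members' correlation with GC content was 0.27 and with length -0.44, against 0.03 and -0.12 over 12881 other protein-coding genes.

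Mitoribosomal proteins under other symbols, which the naming rule misses, lay where the members lay. These 7 genes had a median log2 fold change of -0.53 in the naive comparison of labels and -0.56 for injury in mice labelled wild type, with 0 called and 2 lower at an unadjusted p below 0.05 in each of the authors' deposited tables. Chchd1, a small-subunit protein, had 49.3 FPKM in naive mice labelled knockout against 83.2 FPKM in naive mice labelled wild type (-0.76 ± 0.32, q = 0.168, Cuffdiff's test). Aurkaip1 had 69.1 against 99.2 FPKM (-0.52 ± 0.44), and Dap3, a GTP-binding small-subunit protein, 60.7 against 94.9 FPKM (-0.64 ± 1.39). Ptcd3, the pentatricopeptide protein of the small subunit, had 18.6 against 17.9 FPKM (0.05 ± 0.39), the exception among the 7.

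Of the genes that act on the mitoribosome without being part of it, translation factors lay near 0 in both comparisons. Assembly and rRNA modification genes lay between them and the members, whose medians were -0.40 and -0.39. The 12 translation factors had a median log2 fold change of -0.04 in each comparison, with 0 called. Gfm1, the elongation factor G1 of mitochondria, had 22.2 FPKM in naive mice labelled knockout against 21.5 FPKM in naive mice labelled wild type, and Tufm, the elongation factor Tu, 26.2 against 29.0 FPKM, in the authors' deposited table. The 18 assembly and rRNA modification genes had medians of -0.21 and -0.34, with 0 called, and Rbfa, a factor for maturation of the small subunit, was the 1 gene lower at an unadjusted p below 0.05 (-0.67 ± 0.39 and -0.73 ± 0.40). The median transcript length was 1813 nt for translation factors, 1518 nt for assembly genes and 2494 nt for the subunits under other symbols. In the same order, the median levels in the naive groups were 12.4, 10.1 and 65.0 FPKM, against 39.5 FPKM for the members. Fold changes in these comparisons fell with rising FPKM, so the lists were not matched in a property related to the fold change. No test of the difference between lists was made.

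The 17 mitochondrial aminoacyl-tRNA synthetases, which charge the tRNAs that the mitoribosome reads, had medians of -0.12 and -0.13. Lars2, the leucyl-tRNA synthetase, was the only gene of these pathway lists called in any table. In the authors' deposited tables it had 107 FPKM in naive mice labelled knockout against 28.6 FPKM in naive mice labelled wild type (q = 0.00761), and 184 against 31.3 FPKM after injury with desipramine (q = 0.00818), by Cuffdiff's test. Within labelled knockout it had 182 FPKM after desipramine against 19.5 FPKM after saline (q = 0.00739) and 19.2 FPKM after injury with saline against 107 FPKM in naive mice (q = 0.0128). In 3 of these 4 comparisons the members' median log2 fold change was 0.00 to 0.01, and in the naive one it was -0.40.

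Of 12 genes listed for mitochondrial transcription and mRNA stability, 9 were in the tables, with medians of -0.01 and 0.12 and 0 called. Polrmt, the mitochondrial RNA polymerase, had 17.03 against 29.4 FPKM (-0.79 ± 0.57), and Tfam, which packages mitochondrial DNA, 29.2 against 32.4 FPKM (-0.15) in the naive comparison of labels. The 12 protease and import genes had medians of -0.18 and -0.20, with 0 called. Of 13 mRNAs made in mitochondria, 3 were tested, and the other 10 carried the status HIDATA, Cuffdiff's mark for a locus with too many reads. mt-Nd1 had 8554 FPKM in naive mice labelled knockout against 5440 FPKM in naive mice labelled wild type, mt-Nd2 6874 against 4074 FPKM and mt-Nd3 7072 against 6260 FPKM, none of them past the test (q = 0.800, 0.615 and 0.999, Cuffdiff's test). These 3 products of mitochondrial transcription thus lay on the other side of 0 from the nuclear members, whose median was -0.40.

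**Figure D5:**
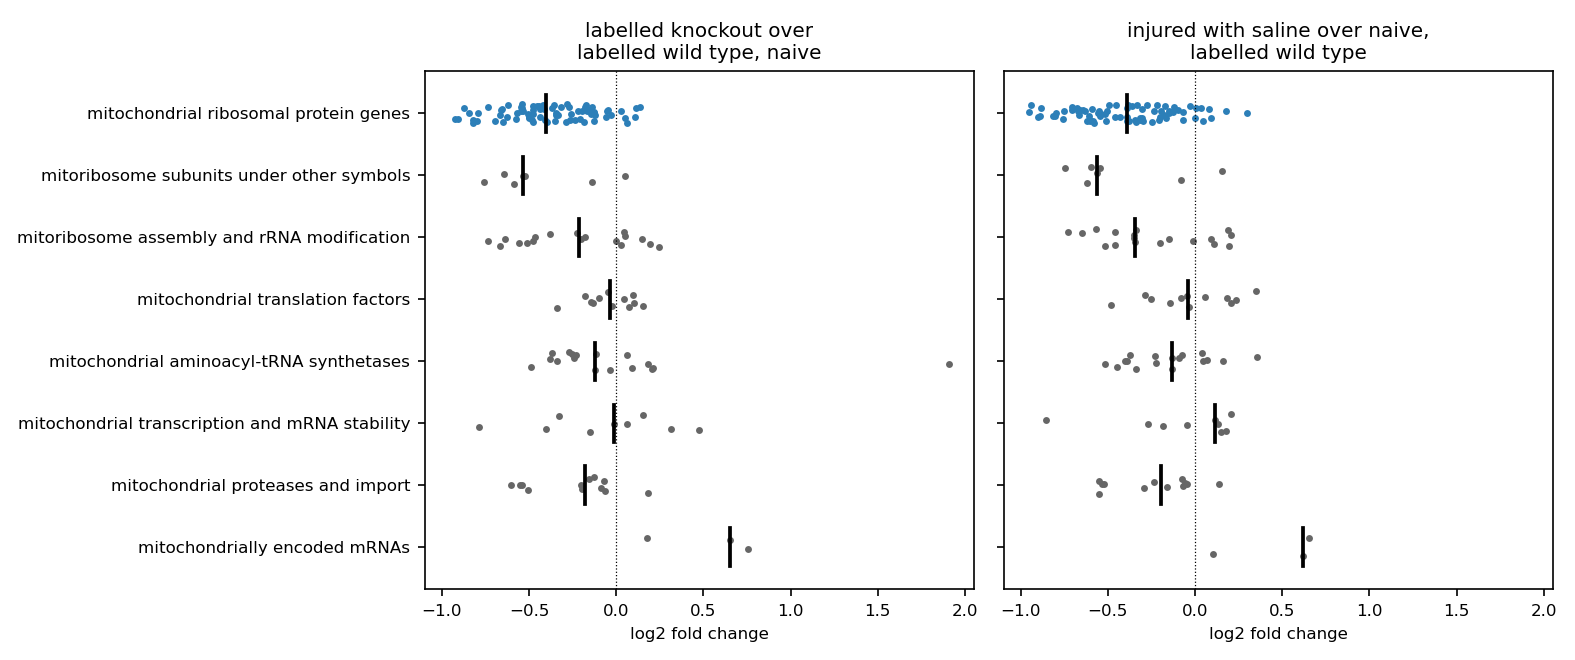
Log2 fold changes of members (blue) and of the genes of 7 pathway lists (grey), with list medians as black bars, in both comparisons that hold the naive group labelled wild type. Subunits under other symbols lie with the members, at medians of -0.53 and -0.56, while translation factors lie near 0 and the mitochondrially encoded mRNAs tested lie above it. The point near 1.91 on the left is Lars2.

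The shift against the naive group labelled wild type was not shown to be particular to the mitochondrial ribosome. For the 89 cytosolic ribosomal protein genes described, the median log2 fold change of labelled knockout over labelled wild type in naive mice was -0.37. For injury in labelled wild type it was -0.39. By the authors' deposited q-values, 1 and 2 of 90 tested were called lower. Of all genes tested, 1.44% and 1.42% were called in either direction. The shift of this list thus rests on its medians and not on these counts. Nuclear genes of the respiratory chain had medians of -0.50 and -0.56, with 4 and 9 of 84 tested called lower. Both lists were formed by symbol after the data were seen. Cell type markers differed in the same comparisons. In both, 8 of 8 cortical excitatory neuron markers were called lower. Choroid plexus markers had 0 of 8 called in the naive comparison of labels, and for injury in labelled wild type they summed to 114 FPKM in injured against 1437 FPKM in naive mice, with 7 of 8 called lower. Medium spiny neuron markers had a median log2 fold change of 0.59 in the naive comparison of labels, with 11 of 12 above 0 and 3 called higher. They summed to 3984 FPKM in labelled knockout against 3376 FPKM in labelled wild type. Rgs9 itself was among the 12 and was 1 of the 3 called (217 against 120.3 FPKM, q = 0.0443, Cuffdiff's test). For injury in labelled wild type the 12 markers summed to 2504 FPKM in injured against 3443 FPKM in naive mice, with 0 of 12 called. Choroid plexus markers also differed where the members' values centred on 0, at 437 FPKM in labelled knockout against 24.98 FPKM in labelled wild type after desipramine, with 7 of 8 called higher and a members' median of 0.00. The part of these cells in the values of the members was not tested.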

How the data were processed

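Illumina TruSeq RNA libraries of 18 nucleus accumbens samples were read on a HiSeq machine, per the labels' protocols. The submitters' processing notes name TopHat2 2.0.9, Bowtie2 2.1.0 and Cuffdiff 2.1.1, and the builds NCBIM37 and mm9. Annotation release, strand setting and tool options were not given in the sources used here. Each of 7 deposited tables sets 1 pair of groups side by side over 37980 genes. The FPKM values, 1 per gene and group, come from the authors' Cuffdiff normalization of that pair. The deposited log2 fold change and the test statistic, a score, are the authors' as well, and so are the p-value and the q-value. Depth per sample is unknown, so no counting interval is given. No table holds values per sample, so limma, planned for values per sample, was not used.

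Computed here, with Python 3.11.15, pandas 2.3.3, numpy 2.4.6 and scipy 1.17.1, were standard errors (log2 fold change over test statistic), list medians, levels joined across tables with a scaling factor for each table, and the difference of 2 fold changes divided by its standard error (normal p, two-sided; adjusted by Benjamini-Hochberg). That last step was tested on simulated data. The simulated fold changes were drawn from the recovered standard errors, so the simulation checks the calculation and not whether those errors fit the real data. Other protein-coding genes served for comparison where a group reached 1 FPKM. Transcript length and GC content are medians over protein-coding transcripts in GENCODE M21, and promoters are RefSeq's. The members and lists were chosen with earlier results of these data known. Genes named are every member with q at or below 0.05, the 3 highest and 3 lowest fold changes per table, the 5 highest and 5 lowest levels, the 3 smallest p for each difference of responses, the Mrps18 paralogs, untested members, up to 2 called genes per pathway list and table, and Rgs9. Others (the members under an unadjusted p of 0.05, and examples from the pathway lists) were chosen after their values were seen.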

Additional observations from a re-analysis of the deposited data

How the results depend on the processing

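Of 76 alternatives, 75 left counts of calls as they were and moved medians by less than the median recovered standard error of members. In the comparisons with the naive group labelled wild type that standard error was 0.49 and 0.51, larger than the medians of -0.40 and -0.39. A move to 0 would have counted as unchanged there, so the count of 75 does not show that these medians were stable. Among the 75, 3 changed the sign of a median close to 0. Centring on other protein-coding genes gave -0.000375 after injury with saline for labelled knockout over labelled wild type, and -0.000375 for injury over naive in labelled knockout, where centring on like genes gave -0.0078. The alternatives varied the q threshold (0.01), the family of the adjustment (all 7 tables), the source of p and the centring. Centring on genes of like length, GC content and level was chosen after seeing the data. Also varied were the FPKM minimum (none or 5), the pseudocount (1) and the members taken. The FPKM minimum and the limit to status OK could change no median, because all 76 members had that status and reached 5 FPKM. The stricter q could not change a count of 0. The exception was injury with saline over naive in labelled wild type with normal p from the test statistic, where 1 member, Mrpl52, was called, against 0 with the deposited q; the cause was not tested. The median log2 fold change of members ran from -0.40 to -0.22 over the alternatives for labelled knockout over labelled wild type in naive mice and from -0.39 to -0.21 for injury in labelled wild type. In the other 5 comparisons it stayed between -0.01 and 0.03. No paired analysis was possible because the tables hold no values per sample. For the same reason the fit with a replicate block and leaving out 1 replicate at a time were not run. The recovered standard errors differed between tables: their median over members was 0.49 and 0.51 in the comparisons with the naive group labelled wild type and 0.24 to 0.31 in the other 5.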
